A study of Mus musculus with 4 samples.

Results

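The common gamma chain cytokine receptors are the 8 mouse genes Il2ra, Il2rb, Il2rg, Il4ra, Il7r, Il9r, Il15ra and Il21r. They were found by their symbols among the 50686 Ensembl gene identifiers of each count table, and all 8 were present. RNA was counted per gene in 4 libraries of cells from mouse spleen and lymph node, covering WT and Yap KO cells, each without stimulation and stimulated. Each group held 1 library, so no value has a replicate check. The titles of both stimulated libraries carry the number 24 without a unit. The stimulus, the ages, the number of animals, the allele and the promoter behind the knockout were not stated in the labels.

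These receptors share a signalling chain, encoded by Il2rg, which pairs with a chain of its own for each cytokine. Il2ra, Il2rb and Il2rg together form the high-affinity interleukin 2 receptor, Il15ra with Il2rb and Il2rg the interleukin 15 receptor, and Il4ra, Il7r, Il9r or Il21r with Il2rg the receptors for interleukins 4, 7, 9 and 21. Signals run through the kinases JAK1 and JAK3 to STAT factors. In T cells, interleukin 7 maintains resting cells, interleukin 2 drives growth after activation, and interleukin 15 maintains CD8 memory cells.

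Reads in genes numbered 19935523 to 25419974 per library. The T cell receptor complex gene Cd3e had 5023 to 24777 reads and the CD8 gene Cd8a 4858 to 20341, whereas Cd4 had 0 to 3. Yap1, the gene named in the genotype, had 0 to 3 reads per library. That is at or under the floor of 3 reads, so it could not check the genotype labels. In these bulk libraries, fewer cells of a type and less RNA per cell cannot be told apart.

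Il2ra, the alpha chain that raises affinity for interleukin 2, lies on chromosome 2 from 11642807 to 11693193 (GRCm38, plus strand, 9 exon blocks). The unstimulated libraries held 98 reads of it in WT and 316 in Yap KO, and the stimulated libraries 14272 and 17406. Both stimulated libraries stood far above both unstimulated ones. The change with stimulation was 6.72 ± 0.27 on the log2 scale (edgeR quasi-likelihood adjusted p = 1.10e-07). Here and below, ± gives an SE derived from the test, as the size of the coefficient over the square root of its F statistic. Stimulated over unstimulated, the log2 ratio was 7.32 in WT (95% counting interval 7.07 to 7.65) and 6.20 in Yap KO (6.05 to 6.38).

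Il15ra, the chain that binds and presents interleukin 15, lies next to Il2ra on chromosome 2, from 11705290 to 11734317 on the same strand. The gap holds 12096 bases, and no other gene of the tables lies within it. Reads of Il15ra numbered 379 in WT and 671 in Yap KO without stimulation, and 1556 and 1099 with it. It rose by 1.66 ± 0.23 (edgeR adjusted p = 0.000188), with log2 ratios of 2.20 in WT and 1.14 in Yap KO. Il2ra and Il15ra were the only members called higher after stimulation, 2 of the 7 that passed the filter on low counts. Among all 15394 genes tested, 33.3% were called higher and 34.1% lower.

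Because these neighbouring genes rose together, the 250 bases before the start of each are shown from RefSeq (GRCm38.p6, plus strand, 5′ to 3′), which had entries for 7 of the 8 members, all but Il2rb. Capitals mark matches to any of 5 motifs searched on both strands. These were the STAT motif TTCNNNGAA, the AP-1 motif TGANTCA, the forkhead motif GTAAACA, the ETS motif CCGGAAG and the NF-kB consensus.
Il2ra, chr2:11642542-11642791: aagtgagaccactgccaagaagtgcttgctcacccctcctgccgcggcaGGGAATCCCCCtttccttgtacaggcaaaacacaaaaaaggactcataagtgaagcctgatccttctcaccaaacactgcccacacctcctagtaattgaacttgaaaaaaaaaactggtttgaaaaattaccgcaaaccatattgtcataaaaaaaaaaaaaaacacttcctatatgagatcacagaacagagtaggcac
Il15ra, chr2:11705043-11705292: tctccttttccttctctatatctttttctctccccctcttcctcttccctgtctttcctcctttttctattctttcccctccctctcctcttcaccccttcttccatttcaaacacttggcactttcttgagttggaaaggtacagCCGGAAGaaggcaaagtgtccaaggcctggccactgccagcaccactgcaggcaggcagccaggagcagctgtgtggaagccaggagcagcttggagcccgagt
The Il2ra window held 2 overlapping NF-kB matches, which begin 201 and 200 bases before the start. At least 1 such match was present in 7.25% of the 32851 promoter windows of this length. The Il15ra window held 1 ETS match 104 bases before the start, a motif found in 6.91% of windows. A second Il15ra window, further downstream, held an AP-1 match 30 bases before its start, a motif found in 6.75%. Matches were not limited to the members that rose. The same ETS motif lay 17 bases before the RefSeq start of Il2rg, a STAT match 142 bases before that of Il7r and a forkhead match 38 bases before that of Il21r. RefSeq starts lay downstream of the gene starts given here (GENCODE M21) by 300 bases for Il7r, 151 for Il4ra and 422 for the second Il15ra window. The Il7r window and the second Il15ra window, with their matches, therefore lay inside the gene as placed here. The Il4ra window ran across the gene start. The windows of Il4ra and Il9r held none. A match is a description of letters and not a measured binding site.

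**Figure D1:**
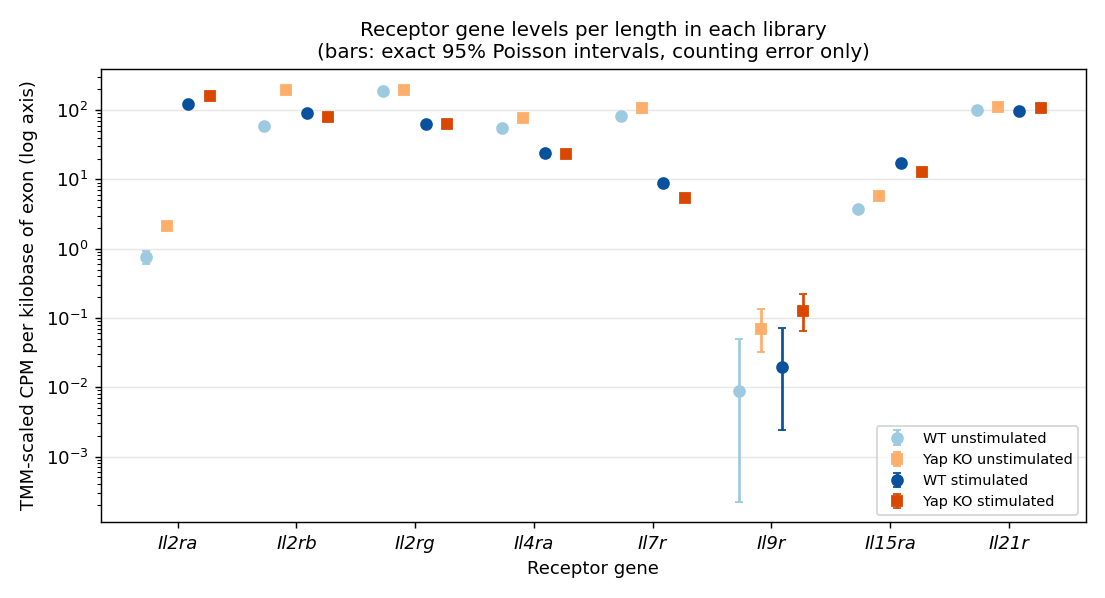
TMM-scaled CPM (reads scaled by library depth) per kilobase of exon, on a log axis, for the 8 receptor genes in the 4 libraries, 1 point per library, with exact 95% Poisson intervals of the count. Il2ra moved from 0.749 and 2.13 before stimulation to 122 and 158 after it, Il7r moved from 82.2 and 107 to 8.83 and 5.33, and Il9r lay below the other genes in every library.

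Il7r, the interleukin 7 receptor of resting T cells, moved the other way. It lies on chromosome 15 from 9505788 to 9530176 on the minus strand. Without stimulation it had 8779 reads in WT and 13010 in Yap KO, and with stimulation 841 and 480. Both stimulated libraries were lower than either unstimulated one. Il7r fell by 3.77 ± 0.24 on the log2 scale (edgeR adjusted p = 1.43e-06).

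Il2rg, the shared chain itself, lies on the X chromosome from 101264378 to 101268255 on the minus strand. Its counts were 10366 and 12246 unstimulated and 3071 and 2930 stimulated in WT and Yap KO. It fell by 1.61 ± 0.12 (edgeR adjusted p = 3.48e-06), and the log2 ratios of -1.59 in WT and -1.63 in Yap KO had overlapping counting intervals. Gm20489 shares 728 of the 2387 exon bases of Il2rg on the same strand and had at most 1 read, and reads in shared exons may stand among the ambiguous reads.

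Il4ra, the interleukin 4 receptor chain, lies on chromosome 7 from 125552120 to 125579474 on the plus strand. Its reads numbered 7676 in WT and 11829 in Yap KO without stimulation, and 2905 and 2681 with it. It fell by 1.47 ± 0.14 (edgeR adjusted p = 1.96e-05). Of its 6002 exon bases 571 lie opposite Gm44876, which had 618, 893, 216 and 227 reads in the same order. Il7r, Il2rg and Il4ra were the 3 members called lower. The T cell markers were lower after stimulation as well, 9 of 10 in both genotypes, with sums of 6699 and 6828 CPM in WT and Yap KO before it and 3311 and 2992 CPM after it. The 2 CD8 markers summed to 2150 and 2295 CPM before stimulation and 605 and 521 CPM after it. No T cell or CD8 marker was at 0 in any library, and the part of these shifts in the receptor values was not tested. By size, these 3 were at least 2-fold lower in each genotype with intervals excluding no difference, as were 20.2% of genes tested, and Il2ra and Il15ra were at least 2-fold higher in each, as were 19.2%.

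Il21r, the interleukin 21 receptor chain, begins 23954 bases after the end of Il4ra on the same strand (chromosome 7, 125603429 to 125633570). It had 7744, 9731, 6548 and 6844 reads in the same library order. Its levels were the most even of the members, with log2 stimulation ratios of -0.08 in both genotypes (WT interval -0.12 to -0.03, Yap KO -0.12 to -0.03). The state term was -0.08 ± 0.12 and did not pass the test (edgeR adjusted p = 0.579). The neighbours Il4ra and Il21r therefore differed in their values with stimulation, whereas Il2ra and Il15ra both rose.

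Il2rb, the signalling chain shared by the receptors for interleukins 2 and 15, lies on chromosome 15 from 78479256 to 78495271 on the minus strand. Without stimulation it had 5818 reads in WT and 21746 in Yap KO, and with stimulation 8103 and 6658. The Yap KO unstimulated library stood above the other three. Its log2 stimulation ratio was 0.64 in WT (0.59 to 0.69) and -1.28 in Yap KO (-1.32 to -1.24). Opposite ratios with both intervals excluding no difference were seen in 1.87% of genes tested. The additive state term, which averages over both genotypes, was -0.32 ± 0.36 and was not called (edgeR adjusted p = 0.452). The value turned on single libraries. Without a genotype term it was -0.56 over all 4 libraries, 0.54 without the Yap KO unstimulated library (edgeR adjusted p = 0.0400) and -1.19 without the WT unstimulated library (adjusted p = 0.00341).

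Il9r, the interleukin 9 receptor chain, lies on chromosome 11 from 32187541 to 32200279. It had 1, 9, 2 and 12 reads in the same order and did not pass the filter. Both WT counts lay under the floor of 3 reads, so no stimulation fold is given there. In Yap KO the log2 stimulation ratio was 0.70 with a counting interval of -0.53 to 2.27, so no difference was detectable at this depth.

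**Figure D2:**
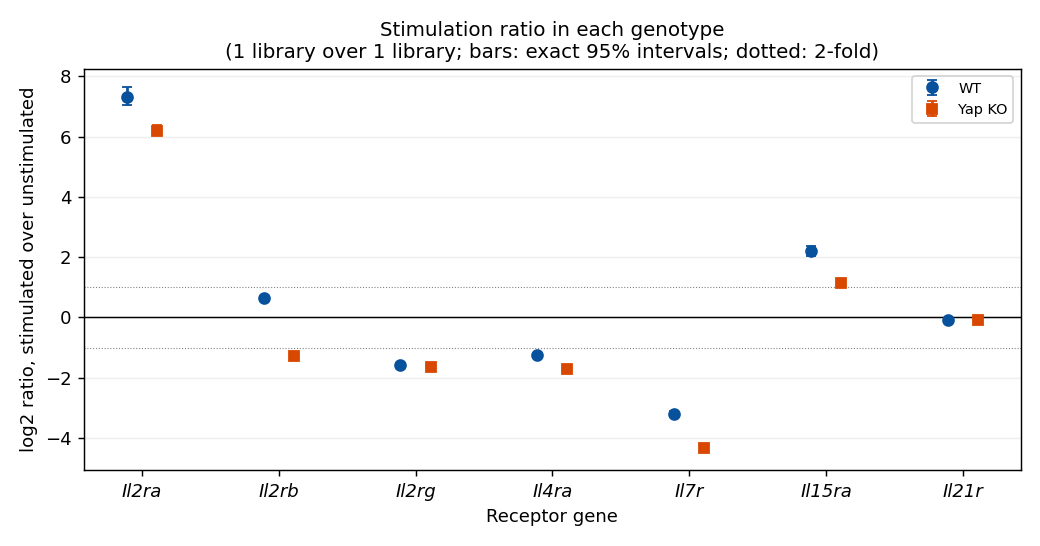
Log2 ratios of stimulated over unstimulated levels (vertical axis) for the 7 receptor genes that passed the filter, in WT (circles) and Yap KO (squares), each from 1 library over 1 library with exact 95% counting intervals. Il2rb lay at 0.64 in WT and -1.28 in Yap KO, on opposite sides of no difference.

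The make-up of the receptor transcripts differed between the states. On the scale of TMM-scaled CPM per kilobase of exon, Il2rg ranked first in WT unstimulated cells at 189.5, followed by Il21r at 102, Il7r at 82.2, Il2rb at 59.2 and Il4ra at 55.8. Il15ra at 3.72, Il2ra at 0.749 and Il9r at 0.00882 followed. With the longest transcript as length, Il4ra stood above Il2rb in WT unstimulated cells, at 63.7 against 60.5. In WT stimulated cells Il15ra then stood above Il4ra, at 32.9 against 27.1. In Yap KO unstimulated cells Il2rb at 195 stood second to Il2rg at 197, and this was the only neighbouring pair there whose intervals overlapped. In WT stimulated cells Il2ra led at 122, before Il21r at 96.4 and Il2rb at 92.5, whose intervals overlapped. In Yap KO stimulated cells Il2ra led at 158, before Il21r at 107 and Il2rb at 80.4.

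Of the summed per-length level of the 8 genes, Il2ra made up 0.152% in WT and 0.306% in Yap KO before stimulation and 28.9% and 35.1% after it. Il7r went from 16.7% and 15.4% to 2.08% and 1.19%. Relative to Il2rg, the level of Il2ra after stimulation was 1.94 times as high in WT and 2.48 times as high in Yap KO. With the exon bases that Il2rg shares with Gm20489 left out of its length, these ratios were 1.35 and 1.73, and Il2rg and Il2rb then had overlapping intervals in WT stimulated cells. In Yap KO stimulated cells Il2rg then ranked above Il2rb, at 91.5 against 80.4, as it also did by the longest transcript. In Yap KO unstimulated cells their intervals then no longer overlapped, at 284 against 195.

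**Figure D3:**
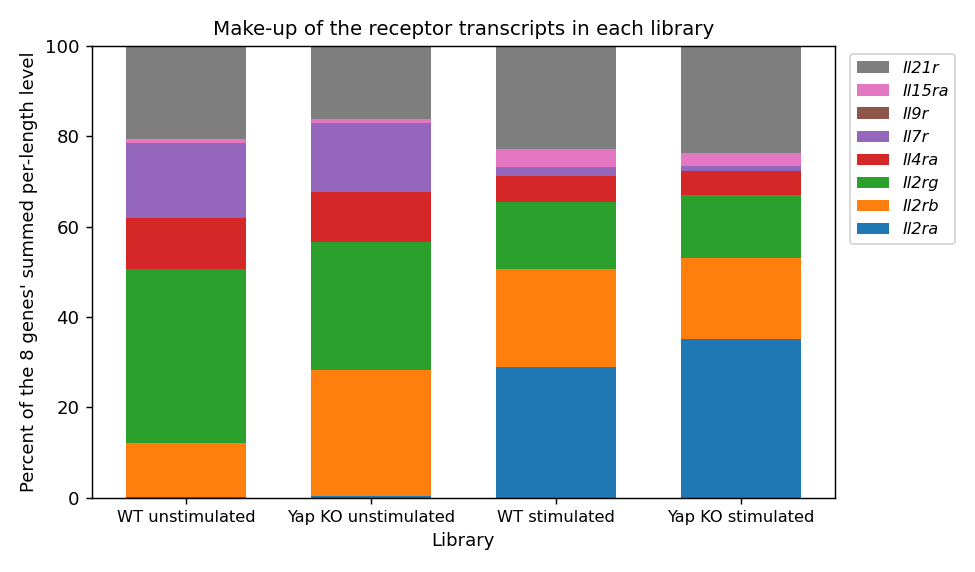
Percent of the summed per-length level of the 8 receptor genes taken by each gene (stacked bars, 1 library per bar). Il2rg took 38.5% in WT unstimulated and 28.3% in Yap KO unstimulated cells, and Il2ra took 28.9% and 35.1% in the stimulated libraries.

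The second comparison set Yap KO against WT in each state. No member passed the test for a genotype difference that was alike in both states, while 0.838% of all genes tested were called higher and 0.559% lower in Yap KO by edgeR. At an unadjusted p under 0.05 edgeR had 1 of the 7, Il2ra. The share of all genes tested at that unadjusted level is not given, here or for the lists below. DESeq2 called 1 member, beside 95 genes tested called higher and 88 lower. Limma voom called 0, beside 194 higher and 134 lower. These p-values compare 2 cell sources with no replicate animals and would be too small if read as a comparison between animals. The genotype term was largest for Il2ra, 0.82 ± 0.23 (edgeR adjusted p = 0.162), and DESeq2 called it higher (0.87, adjusted p = 0.0244). The term was 0.76 ± 0.36 for Il2rb (edgeR adjusted p = 0.470), 0.15 ± 0.12 for Il21r (0.709) and 0.04 ± 0.12 for Il2rg (0.948).

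Before stimulation, Il2rb was 3.30-fold higher in the Yap KO than in the WT library (log2 ratio 1.72, interval 1.68 to 1.76) and Il2ra was 2.84-fold higher (1.49, 1.18 to 1.85). Of the 7 members that passed the filter, these were the 2 at least 2-fold higher with an interval excluding no difference, a size that 4.10% of genes tested reached. The ratios of Il15ra (0.64, 0.46 to 0.83), Il4ra (0.44, 0.40 to 0.48), Il7r (0.39, 0.35 to 0.43), Il21r (0.15, 0.11 to 0.19) and Il2rg (0.06, 0.02 to 0.10) were smaller and also above 0. Il9r, which did not pass the filter, had 1 and 9 reads, and no ratio is given because the WT count lay under the floor.

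After stimulation, none of the 7 members that passed the filter was 2-fold apart between the genotypes by that rule, against 3.08% of genes at least 2-fold higher and 4.42% at least 2-fold lower in Yap KO. Il7r was lower in the Yap KO library (-0.73, -0.89 to -0.56), as were Il15ra (-0.42, -0.53 to -0.31) and Il2rb (-0.20, -0.25 to -0.16). Il2ra was higher (0.37, 0.34 to 0.40) and so was Il21r (0.15, 0.10 to 0.19). Il9r, below the filter, had 2 and 12 reads, and again no ratio is given over a WT count under the floor. The intervals of Il4ra (-0.03, -0.11 to 0.04) and Il2rg (0.01, -0.06 to 0.09) included no difference. Il2rb, Il7r and Il15ra had genotype ratios of opposite sign in the 2 states with both intervals excluding no difference, as did 8.88% of genes tested.

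**Figure D4:**
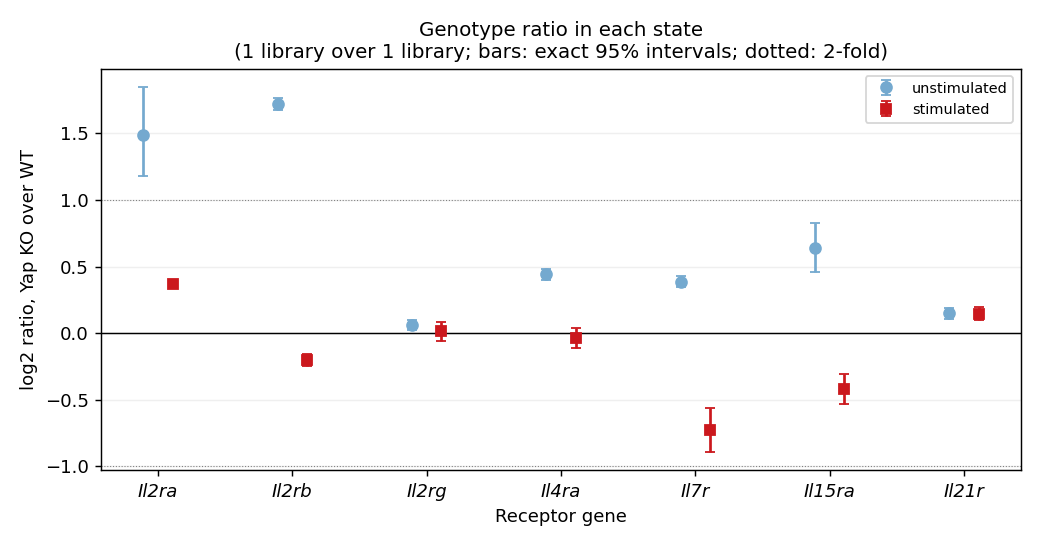
Log2 ratios of Yap KO over WT (vertical axis) for the 7 receptor genes that passed the filter, unstimulated (circles) and stimulated (squares), each from 1 library over 1 library with exact 95% counting intervals. All 7 lay above 0 before stimulation, with Il2rb at 1.72 and Il2ra at 1.49, and Il7r, Il15ra and Il2rb lay below 0 after it.

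The stimulation ratio was lower in Yap KO than in WT, by at least 2-fold with an interval excluding no difference, for Il2rb (difference of log2 ratios -1.92, 95% interval -1.99 to -1.86), Il2ra (-1.12, -1.45 to -0.80), Il7r (-1.11, -1.28 to -0.95) and Il15ra (-1.06, -1.27 to -0.85). These are 4 of 7 members, beside 4.70% of all genes tested. Of all genes tested, 54.7% had a lower ratio in Yap KO by any amount. The difference had no test, since with 1 library per group the interaction leaves no residual degree of freedom. Il4ra had a smaller difference (-0.48, -0.56 to -0.39). Those of Il2rg (-0.05, -0.13 to 0.04) and Il21r (0.00, -0.07 to 0.06) had intervals that included 0. The genotype and stimulation ratios share libraries, so a high Yap KO unstimulated level enters both. The median difference over the 7 members was -1.06, and over all genes tested -0.05.

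Some of the listed genes and markers differed between the unstimulated libraries in the same direction as Il2rb, and others did not. Tbx21 and Eomes, the T-box factors known to act on Il2rb in CD8 T and NK cells, had 394 and 1184 reads in WT and 2550 and 2985 in Yap KO. Their log2 ratios were 2.51 (2.36 to 2.67) and 1.15 (1.06 to 1.25) before stimulation and 0.03 and 0.39 after it. They were the 2 of the 15 tested transcription factors listed that were at least 2-fold higher before stimulation, where the median ratio of that list was -0.02. All 7 NK cell markers of the list were also higher in the Yap KO unstimulated library, with summed levels of 659.6 and 1069 CPM in WT and Yap KO, and 398 and 571 CPM after stimulation. Most of that sum was Nkg7, which CD8 T cells also express, with 14020 and 24165 unstimulated reads. The defining NK gene Ncr1 had 2 and 15 unstimulated reads, and no marker of the list was at 0 in either unstimulated library. Unstimulated reads of the other NK markers were 646 and 2637 for Klrk1, 387 and 809 for Gzma, 50 and 75 for Klrb1c, 2 and 62 for Klra8 and 7 and 15 for Klra4. All 9 B cell markers were higher as well, summing to 39.6 and 70.8 CPM. Of the dendritic cell markers 6 of 7 were higher, summing to 15.2 and 38.8 CPM, with 144 and 607 reads of Itgax. Of the monocyte and macrophage markers 7 of 9 were higher, summing to 840 and 1446 CPM, and Marco was at 0. Ly6c2 alone, with 18650 and 36747 reads, had 814 and 1414 CPM of these sums. The next largest marker of this set, Csf1r, had 15.8 and 16.7 CPM. Adgre1 had 1 and 7 reads, and Cd14 had 2 and 1. The monocyte and macrophage sums thus mainly give the level of Ly6c2, and the content of these cells was not tested. Some other marker sets were split or mostly not higher, with 1 of 6 neutrophil, 1 of 6 erythroid and 2 of 5 regulatory T cell markers higher. The part of any of these cell types, or of Tbx21 and Eomes, in the receptor values was not tested. The summed CPM of the 10 T cell markers was 6699 and 6828.

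The ligands were mostly near the floor. Il2, which encodes the T cell growth factor interleukin 2, went from 2 to 228 reads in WT and from 0 to 1394 in Yap KO, and was at least 625-fold higher after stimulation in Yap KO when set against the floor of 3 reads. The exact 95% counting interval of that log2 ratio began at 8.99, which is below that bound. It was called higher with stimulation (edgeR adjusted p = 7.03e-07) and in Yap KO (adjusted p = 0.0118), but DESeq2 gave a genotype term of -0.07 that was not called, and edgeR without the filter did not call it either (adjusted p = 0.110). Both unstimulated counts of Il2 lay under the floor, so it passed the filter through the stimulated libraries alone. Its state call is therefore no independent support for the rise, and its genotype term rests on the stimulated pair. Il21, a cytokine of helper T cells, went from 0 to 61 reads in WT and from 1 to 99 in Yap KO and was also called higher with stimulation (edgeR adjusted p = 7.73e-06), at least 22.8-fold in WT against the same floor, where the log2 interval began at 4.17. Il21 too passed the filter through the stimulated libraries alone. Il15, with 11, 35, 10 and 7 reads, was not called. Il4, Il7, Il9, Il13 and Tslp had at most 4 reads in any library. Among partner chains outside the gamma chain group, Crlf2, which pairs with Il7r to bind TSLP, went from 157 to 72 reads in WT and from 286 to 57 in Yap KO and fell by 1.43 ± 0.30 (edgeR adjusted p = 0.00230). In fits on state alone, the fall of Crlf2 was not called without the Yap KO unstimulated library (edgeR adjusted p = 0.0554) or without the Yap KO stimulated one (0.0589). Il13ra1, which pairs with Il4ra, had 0, 19, 4 and 5 reads, and Il13ra2 had none.

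Of the 11 JAK and STAT genes, all tested, 3 rose and 5 fell, with a median state change of -0.18 beside -0.05 over all genes tested. By state 72.7% of this list was called, beside 67.4% of all genes tested. Stat5a, a main effector of these receptors, rose by 1.56 ± 0.13 (edgeR adjusted p = 6.56e-06), Stat3 by 0.82 ± 0.14 and Stat4 by 0.39 ± 0.14. Stat5b, a close paralog of Stat5a, had -0.18 ± 0.12 and was not called, and how reads were split between the pair is uncertain. Jak1 fell by 2.48 ± 0.14 (edgeR adjusted p = 7.40e-07), Tyk2 by 1.00 ± 0.12 and Jak3, the kinase bound by the gamma chain, by 0.73 ± 0.13. The rise of Stat4 and the fall of Stat2 (-0.59 ± 0.21) were small and were lost in fits on state alone without the WT unstimulated library (edgeR adjusted p = 0.213 and 0.768) or without the Yap KO stimulated library (0.0566 and 0.757), where the value of Stat2 changed sign to 0.09. Stat4 was also lost without the WT stimulated library (0.150) and Stat2 without the Yap KO unstimulated library (0.358). By genotype edgeR called none of the 11, with 1, Stat2, at an unadjusted p under 0.05 (-0.93, adjusted p = 0.0776), while DESeq2 (0.0122) and limma voom (0.0328) called Stat2 lower in Yap KO.

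Of the 11 feedback inhibitors, 4 rose and 3 fell, with a median of 0.32 beside -0.05 over all genes tested. The share called by state was 63.6%, beside 67.4% of all genes tested. Cish, a STAT5 target that restrains the receptors, rose by 4.01 ± 0.22 (edgeR adjusted p = 5.67e-07) and Socs2 by 2.87 ± 0.39, with smaller rises of Socs4 (0.82 ± 0.18) and of the phosphatase gene Ptpn2 (0.59 ± 0.13). Socs3 fell by 2.07 ± 0.19, Ptpn6 by 0.44 ± 0.14 and Sh2b3 by 0.37 ± 0.13. In fits on state alone, Ptpn6 was not called when any library but WT unstimulated was left out (edgeR adjusted p = 0.0636 to 0.136), and Sh2b3 was not called when any of the 4 was left out (0.0612 to 0.243). Socs2, like Il2ra and Il15ra, had a lower stimulation ratio in Yap KO than in WT, by -1.79 (-2.54 to -1.04).

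Of 12 growth and survival genes, 7 rose and 3 fell, with a median of 0.68 beside -0.05 over all genes tested. The share called by state was 83.3%, beside 67.4% of all genes tested. Gzmb, the cytotoxic protease granzyme B, rose by 6.998 ± 0.28 (edgeR adjusted p = 1.07e-07), the survival gene Bcl2l1 by 2.53 ± 0.13, Myc by 1.66 ± 0.12 and the kinase gene Pim2 by 1.29 ± 0.14. Bcl6, a repressor, fell by 1.64 ± 0.31, Bcl2, a survival gene that interleukin 7 sustains, by 1.08 ± 0.22 and Mcl1 by 0.68 ± 0.13. Bcl2l1 was the member of this list called higher in Yap KO (0.76, edgeR adjusted p = 0.0244), though not without the filter (0.169). Prf1, which encodes perforin, had a genotype term of 0.75 that edgeR did not call (adjusted p = 0.0591), while DESeq2 (0.0268) and limma voom (0.0233) called it higher. In fits on state alone, Bcl2 was not called without the Yap KO unstimulated library (edgeR adjusted p = 0.0592). Osm, which rose by 0.82 ± 0.19, was not called without the WT unstimulated (0.0801), Yap KO unstimulated (0.0539) or WT stimulated library (0.0686), and Prf1, not called with all 4, was called lower without the Yap KO stimulated library (0.0239).

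Of 16 lymphocyte transcription factor genes, 15 were tested, 4 rose and 8 fell, with a median of -0.34 beside -0.05 over all genes tested. The share called by state was 80%, beside 67.4% of all genes tested. Foxo1 fell by 1.90 ± 0.15 (edgeR adjusted p = 5.92e-06), and Gfi1 rose by 2.42 ± 0.14 (adjusted p = 7.73e-07). Factors of this list are known to act on member genes, but their part in the member values was not tested. The largest falls were those of Klf2 (-5.60 ± 0.18), a factor of resting T cells, Ets1 (-3.07 ± 0.17) and Nfatc2 (-2.09 ± 0.14). The NF-kB subunit gene Rel rose by 1.85 ± 0.15, Tbx21 by 1.65 ± 0.46 and Gabpa by 0.56 ± 0.13. The rise of Tbx21 was not alike in the genotypes, with log2 ratios of 2.93 in WT and 0.45 in Yap KO, and it was not called by DESeq2 (adjusted p = 0.161) or in edgeR fits on state alone without the WT unstimulated (0.0591), WT stimulated (0.271) or Yap KO stimulated library (0.289). In those fits Gabpa was not called without either Yap KO library (0.0531 and 0.0542), Nfatc1 (-0.34 ± 0.12) was not called when any library but WT unstimulated was left out (0.113 to 0.193), and Eomes was called lower without WT unstimulated (0.0212). None of this list was called by genotype in edgeR, against 4 at an unadjusted p under 0.05, 0 with DESeq2 and 1 with limma voom. Among the genes named from these lists, Il21, Il7, Jak1, Tyk2, Stat3, Stat5a, Cish, Ptpn6, Sh2b3, Bcl2, Bcl6, Foxo1, Gabpa, Gfi1 and Eomes have exon bases opposite another gene, and reads of such pairs could not be told apart.

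**Figure D5:**
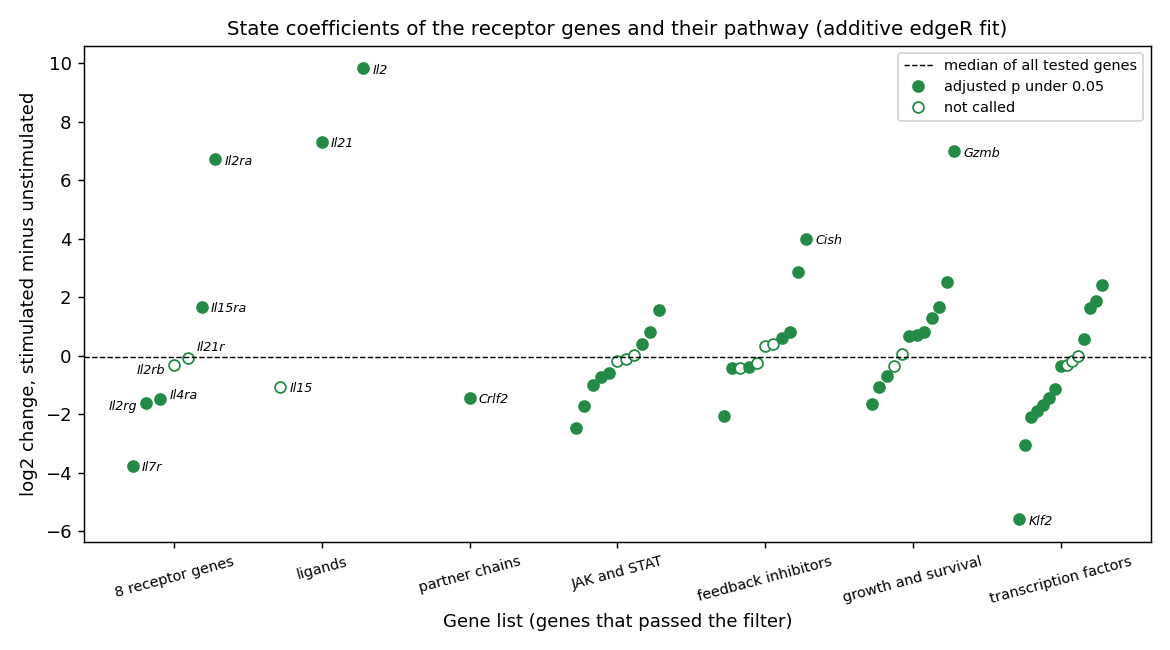
State coefficients (log2, stimulated minus unstimulated, additive edgeR fit) of the receptor genes and the 6 pathway lists, 1 point per gene that passed the filter, filled where called. Il2ra at 6.72 stood highest of the receptors and Il7r at -3.77 lowest, and Il9r is absent because it did not pass the filter.

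Patterns over the 4 libraries were compared by Euclidean distance of centred log2 CPM among 9184 genes averaging at least 10 CPM. The closest pair of members was Il2rg and Il4ra, at 0.306, and the farthest Il2ra and Il7r, at 10.6. Nearest to Il2ra were Psrc1 (0.396), Cenpf (0.497) and Hk2 (0.521). Psrc1 lay at 0.0436 CPM in the WT unstimulated library, under the floor, so its distance depends on the prior count of 2. Nearest to Il7r were Cul9 (0.151), Izumo4 (0.219) and Flt3l (0.270). For Il2rb they were 1700025G04Rik (0.1296), Unc93b1 (0.540) and Mapk11 (0.557), and for Il15ra E2f2 (0.203) and Mxd3 (0.219). Il2rg lay nearest to Ndst1 (0.0291), Pigo and Mau2, Il4ra to Ranbp10 (0.0841), Ppdpf and Pik3cd, and Il21r to Man1b1 (0.0106), Las1l and Mtpn. With 4 libraries many genes follow alike patterns, and no test was made of these distances.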

How the data were processed

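For every library the authors deposited raw counts of reads by Ensembl gene, with 5 closing summary entries that were left out. The submitters' processing notes name the build mm9; aligner, annotation release and strand setting were not stated there or in the labels. Symbols matched 50376 of 50686 identifiers through GENCODE M21, whose GRCm38 coordinates and exon lengths are given; the files' own coordinates were not used.

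Genes were kept with edgeR 4.0.16 filterByExpr by state (minimum count 10, 15394 genes) and scaled with TMM (factors 0.968 to 1.04). Genes were tested by quasi-likelihood in edgeR (glmQLFit, glmQLFTest) with additive genotype and state terms on all 4 libraries, Benjamini-Hochberg adjustment at 0.05. Its 1 residual degree of freedom holds the genotype by state interaction, so p-values rest on how alike both genotypes were and not on replicate cultures. Log2 ratios of 1 library over 1 library used a prior count of 2, with exact 95% intervals (Clopper-Pearson, conditional binomial). Intervals of counts are exact Poisson, and those of response differences are normal on the log scale. All of them describe counting error alone, and PCR copies among the reads cannot be recognised. The floor was 3 reads, 0.115 to 0.155 CPM. The state fit was tested on simulated counts of the same genes with known state changes. These counts had 1 common spread and no genotype by state interaction, so they do not check genes whose response differed between genotypes.

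All members were named; of each pathway list, called genes with the 4 largest rises and falls, every gene called by genotype and all ligands and partner chains. Stat2, Stat5b, Osm, Prf1, Nfatc1 and Eomes fall outside this rule and were named after their values were seen. The 3 most alike genes are given per member. Some results that these rules select are not reported here. The members and lists were chosen with earlier results of these data known. DESeq2 1.42.0 and limma 3.58.1 voom were alternatives.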

Additional observations from a re-analysis of the deposited data

Results flagged for a closer look

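Il2rb moved in opposite directions with stimulation in the 2 genotypes, with log2 ratios of 0.64 in WT and -1.28 in Yap KO and a difference of -1.92. This difference was not tested. Across all genes tested, 1.87% had opposite ratios with both intervals excluding no difference.

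For Il7r, the Yap KO library was higher than WT before stimulation (0.39) and lower after it (-0.73), which gives a difference of -1.11 that was not tested. For Il15ra the same 2 values were 0.64 and -0.42, with a difference of -1.06, again not tested. Such opposite genotype ratios were seen in 8.88% of genes tested.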

How the results depend on the processing

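The member calls of Il2ra, Il15ra, Il7r, Il2rg and Il4ra by state held under DESeq2 size factors, total-count scaling, no filter, DESeq2, limma voom and the fit on state alone, with and without each library. In the state-only fits that leave out 1 library, where the lone sample is assumed to vary like the others, the state term of Il2rb ran from -1.19 to 0.54 and that of Il21r from -0.16 to 0.0097, members called higher numbered 2 to 3 and members called lower 3 to 4, and over all genes 3899 to 4126 were called higher and 3517 to 4093 lower. The cause was not tested.

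The genotype term of Il7r, -0.14 in the additive edgeR fit, was 0.024 with limma voom and 0.31 without a state term, and that of Il15ra, 0.09, was -0.013 and -0.16. Genes called higher by genotype numbered 129 in the additive fit, 194 with limma voom, 23 without the filter and 0 without a state term; those called lower numbered 86, against 134, 18 and 0, and 56 with total-count scaling. DESeq2 called 1 member higher by genotype, beside 95 genes tested called higher and 88 lower. Total-count scaling moved the median state change of all genes from -0.05 to -0.13. It called 4777 genes higher and 5543 lower by state, against 5124 and 5246 with TMM. With a 4-fold size rule, 0 members had a response difference, and the share of all genes tested at that size is not given. By gene length, the longest transcript in place of all exons moved Il15ra in WT unstimulated cells from 3.72 to 7.14 CPM per kilobase, and the length of Il2rg without shared bases, chosen after seeing the data, moved it from 189.5 to 273. No paired analysis was possible because every title carries the replicate number 1, so that a block on it would be constant; the genotype term of the additive fit already compares the states within each genotype. The reads limit only Il9r among the members.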
